A study of Rangifer tarandus with 4 samples.

Results

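The WC1 and CD163 scavenger receptor family is described here as 4 gene models, CD163, WC1.3, WC1 and CD163L1, chosen by exact gene symbol out of 21880 genes in a cattle annotation. The annotation accompanies a study of reindeer (Rangifer tarandus) blood, in which mononuclear cells were profiled as 4 single-cell 3′ libraries, 2 from the saphenous vein (labelled back) and 2 from vessels of the distal antler velvet, each loaded with 12000 cells on day 3 after wounding. All animals were kept outdoors, and each of the sample codes 5XD and 4XE occurs in 1 back and 1 antler library. Expression in these libraries was not analysed here, so the values below are positions, lengths and counts of annotated exons, carry no replicate error and belong to no sample. Positions are in the cattle assembly ARS-UCD1.2, counted from 1.

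Scavenger receptor cysteine-rich (SRCR) domains are compact, disulphide-bonded folds found in tandem on many receptors of leukocytes. In the class known as group B, each domain is typically encoded by 1 exon whose flanking introns interrupt a codon after its first base, an arrangement that lets whole domains be added or dropped without shifting the reading frame. CD163 is the receptor of monocytes and macrophages for haemoglobin bound to haptoglobin. WC1 proteins are transmembrane receptors of γδ T cells, which are abundant in the blood of ruminants, and they act there as co-receptors and as receptors for microbes. WC1 proteins are encoded by a gene family and are known to contain repeated blocks of SRCR domains. CD163L1 is a close relative of CD163, known in humans from macrophages.

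All 4 members lay on chromosome 5, within an interval of 1300 kb from 101786078 to 103086215, with CD163 at its left end and CD163L1 at its right end. CD163 (ENSBTAG00000019669) lay on the plus strand at 101786078 to 101818046. WC1.3 (ENSBTAG00000050603) lay on the minus strand at 102627214 to 102694488. WC1 (ENSBTAG00000049861) followed on the minus strand at 102768087 to 102819373, and CD163L1 (ENSBTAG00000054245) on the minus strand at 103022590 to 103086215. CD163 was therefore the single member on the plus strand, and the other 3 members shared the opposite orientation.

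The interval held 15 genes, 6 with a symbol and 9 without. Besides the members, the genes with a symbol were WC-7 and WC1-12, whose symbols also carry the WC prefix but which the choice by symbol left out. An internal coding exon was called SRCR-sized when it was 300 to 330 bases long, a multiple of 3, and preceded and followed by an intron after the first base of a codon (frame 2). By this definition 12 of the 15 genes held SRCR-sized exons, namely the 4 members, WC-7, WC1-12 and 6 genes without a symbol. The size and frame of an exon say nothing of its sequence, and no unnamed gene is given a name from them.

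These 12 genes fell into 2 blocks of opposite orientation. From left to right, the plus-strand block held CD163, ENSBTAG00000053486, WC-7, ENSBTAG00000048875, WC1-12 and ENSBTAG00000024318. The minus-strand block held ENSBTAG00000052511, WC1.3, WC1, ENSBTAG00000039256, ENSBTAG00000050749 and CD163L1. Thus 6 genes pointed right and 6 pointed left, and their 3′ ends faced each other across a gap of 61810 bases. The gaps between successive genes of the 12 ranged from 12081 bases, between ENSBTAG00000052511 and WC1.3, to 210072 bases, between WC1-12 and ENSBTAG00000024318, with a median of 52404 bases.

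**Figure D1:**
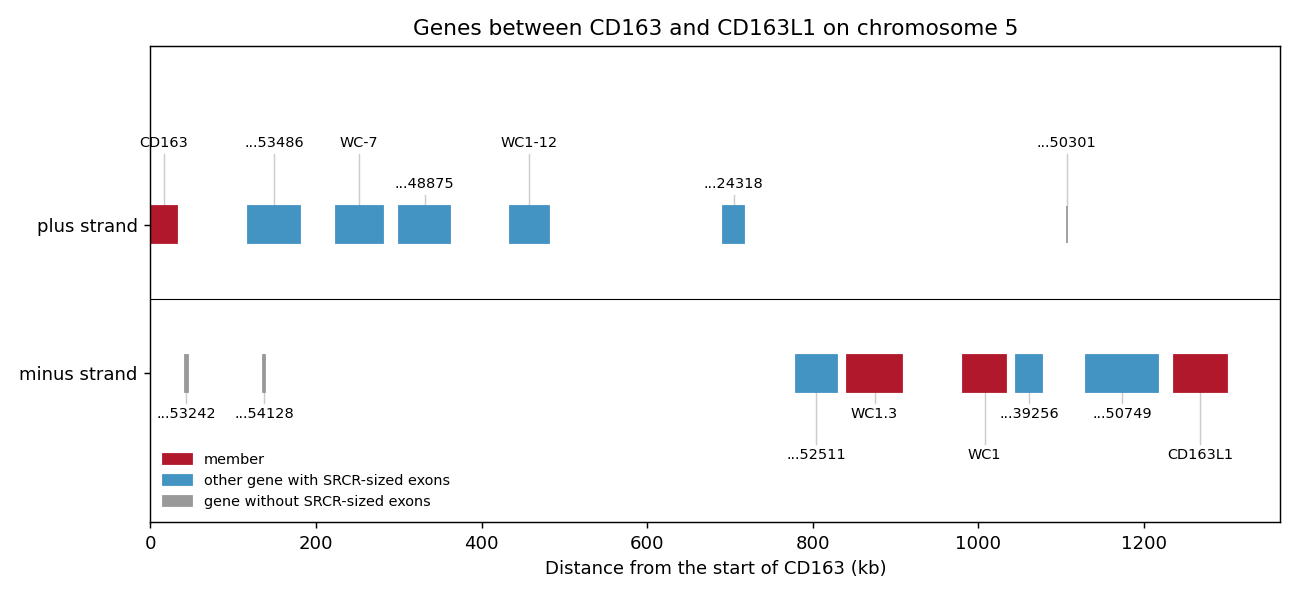
Gene models between CD163 and CD163L1 on chromosome 5, plotted by distance from the start of CD163 in kb, with the plus strand above and the minus strand below; unnamed genes carry the last 5 digits of their identifier. The members (red) sit at both ends and to the right of the middle, and the 6 plus-strand and 6 minus-strand genes with SRCR-sized exons (red and blue) form 2 blocks that do not mix.

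The cluster was bounded by unrelated genes. On the left the nearest gene with a symbol by its end was CLEC4E, which encodes a C-type lectin receptor of myeloid cells and ended 75521 bases before CD163. On the right it was PEX5, the import receptor of peroxisomes, 91459 bases after CD163L1. When 500 kb was added on either side the count of genes rose from 15 to 44, and the number with SRCR-sized exons stayed at 12.

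CD163 had the smallest model of the 4 members. It spanned 31969 bases, with 2 transcripts of 15 and 14 exons and coding sequences of 3387 and 3381 bases, the longer holding 1129 codons. WC1.3 spanned 67275 bases, with 3 transcripts of 22, 21 and 19 exons and a longest coding sequence of 4398 bases (1466 codons). WC1 spanned 51287 bases and had 6 transcripts, with 20 exons and 4323 coding bases (1441 codons) at most. CD163L1 spanned 63626 bases and had 5 transcripts, with 20 exons and 4326 coding bases (1442 codons) at most.

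The longest coding sequences of WC1.3, WC1 and CD163L1 thus lay within 100 bases of each other, and that of CD163 was the shortest of the 4. Among the 16808 protein-coding genes with a symbol, whose median coding length was 1344 bases, 5.11% had a coding sequence at least as long as that of WC1.3. The same share was 5.36% for CD163L1, 5.38% for WC1 and 9.72% for CD163. Among the 4 members WC1 had the most annotated transcripts, and 2.64% of the 16808 genes had 6 or more. The share was 5.09% with at least the 5 of CD163L1, 21.1% with at least the 3 of WC1.3 and 46.1% with at least the 2 of CD163. Other genes of the interval had more than WC1, with 9 in ENSBTAG00000052511 and 7 each in ENSBTAG00000053486 and WC-7.

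The members were made largely of SRCR-sized exons. Over all transcripts, WC1.3 held 12 distinct SRCR-sized exons, WC1 held 11, CD163L1 held 10 and CD163 held 9. In the annotation as a whole, 16 of 21861 protein-coding genes, or 0.0732%, held at least 5, and 12 of those 16 lay in the interval. The 6 genes with 9 or more were all in the interval, namely the 4 members, WC-7 with 11 and ENSBTAG00000052511 with 11. In the transcript with the longest coding sequence, SRCR-sized exons made up 2859 of the 3387 coding bases of CD163 and 3459 of 4323 in WC1. They made up 3150 of 4326 in CD163L1 and 3144 of 4398 in WC1.3. Among these 4 transcripts their share was highest in CD163 at 84.4% and lowest in WC1.3 at 71.5%. In other transcripts the share fell as low as 56.2% in WC1 and 48.3% in CD163L1, while in WC1.3 it stayed at 71.5% to 73.1%.

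The reading frame was as regular as the lengths. All 14 internal coding exons of CD163 began in frame 2 and were multiples of 3. In CD163L1 92.0% of the 25 distinct internal coding exons began in frame 2, in WC1.3 90.6% of 32, and in WC1 85.7% of 28. Over the 4 members this came to 90 of 99 exons, or 90.9%, against 32.0% of the 161908 internal coding exons of all protein-coding genes.

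Exon lengths fell on a few values, given here in codons. Of the 101 SRCR-sized exons in the 12 genes, 50 were 105 codons long, 23 were 103, 14 were 106, 13 were 107 and 1, in WC-7, was 110. WC1.3 used 8 exons of 105 codons, 2 of 103 and 2 of 106. WC1 used 5 of 105, 3 of 103, 2 of 106 and 1 of 107. CD163L1 had the same kinds, with 5 of 105, 2 of 103, 2 of 106 and 1 of 107. CD163 differed in its mix, with 5 exons of 107 codons, 3 of 105, 1 of 103 and none of 106.

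Exons of 105 codons in frame 2 were concentrated in the cluster. Of the 82 such internal exons in the whole annotation, 50 (61.0%) lay in the 12 genes. The share was 48.9% for 103 codons, 38.9% for 106 and 23.6% for 107. In all, the 12 genes held 22.6% and the 4 members 9.40% of the 447 SRCR-sized exons of the annotation. These lengths lay inside the window that defined the exons, so their concentration describes the models and is no test.

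**Figure D2:**
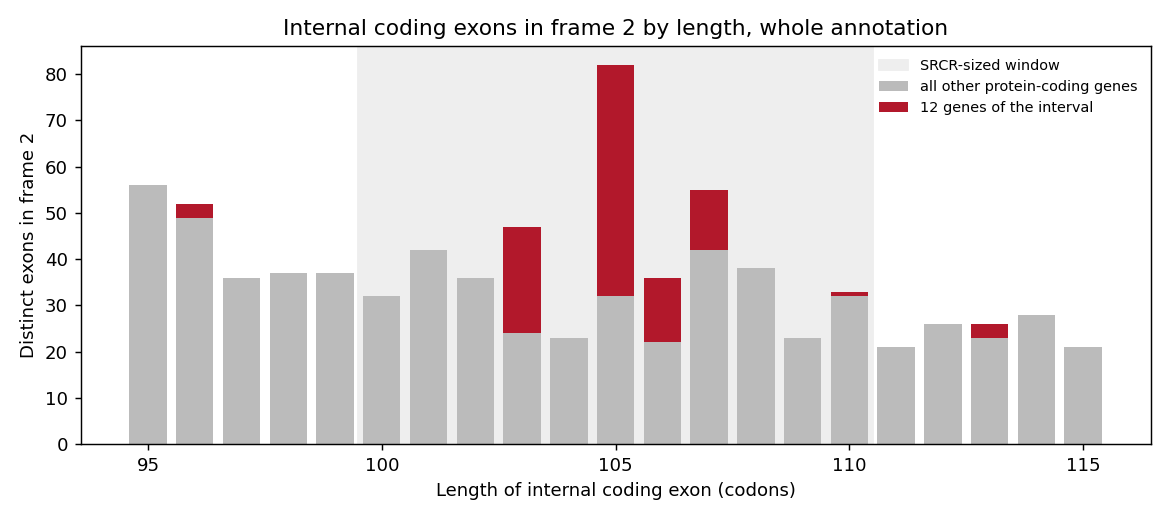
Number of distinct internal coding exons in frame 2 (y axis) by length in codons (x axis) over all protein-coding genes, with the 12 genes of the interval in red and the SRCR-sized window shaded. The tallest bar, at 105 codons, holds 82 exons, 50 of them from the 12 genes, and the red parts stand at 103, 105, 106 and 107 codons.

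Laid end to end, the coding exons of WC1 showed a repeated order. After a first coding exon of 73 bases came SRCR-sized exons of 107, 103 and 106 codons, a short exon of 31 codons, and SRCR-sized exons of 105, 105, 105, 103 and 103 codons. A second short exon of 31 codons was followed by SRCR-sized exons of 106 and 105 codons, and then by 14, 105, 11, 46, 30 and 46 codons and a last exon of 164 coding bases. CD163L1 began with the same 9 exon lengths as WC1, from the exon of 73 bases to the second exon of 103 codons. CD163 started otherwise, with exons of 31 and 87 bases, and went on to 4 exons of 107 codons in a row, 2 of 105, the short exon of 31 codons, then 105, 107, 103, 12 and 36 codons and 173 last bases.

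**Figure D3:**
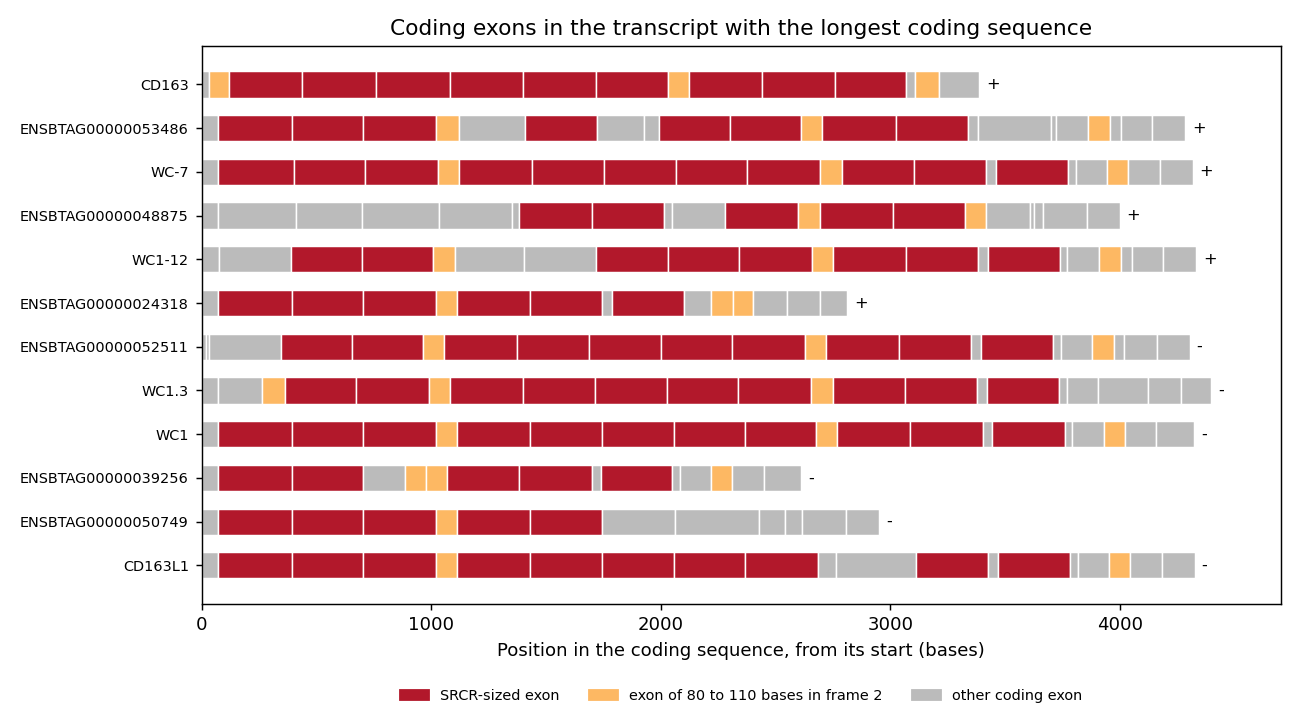
Coding exons of the longest-coding transcript of the 12 genes, in order of position on chromosome 5, with the x axis giving bases from the start of the coding sequence and the sign at the right the strand. SRCR-sized exons are red, exons of 80 to 110 bases in frame 2 orange and other coding exons grey; WC1, WC1.3 and WC-7 show 2 orange exons flanked by red on both sides, and CD163 shows 1.

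The repeated unit was an arrangement of 5 exons, 2 SRCR-sized exons, 1 linking exon of 80 to 110 bases in frame 2, and 2 more SRCR-sized exons. This description was chosen after the exon lengths were seen. Counted as distinct sets of 5 exons by coordinates, the arrangement occurred 15 times in the annotation, in 10 genes, and all 10 lay in the interval. WC1.3 held 3, of which the second and the third share their first 4 exons and differ in the last, so that each of its transcripts held 2. WC1, WC-7 and ENSBTAG00000052511 held 2 each, while CD163 and CD163L1 held 1 each. It was not found in ENSBTAG00000048875 or ENSBTAG00000039256.

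In 11 of the 15 arrangements the exon lengths were exactly 103, 106, 31, 105 and 105 codons. All 3 copies in WC1.3, the first in WC1 and the one in CD163L1 had these lengths. The second copy in WC1 read 103, 103, 31, 106 and 105 codons, and the copy in CD163 read 105, 105, 31, 105 and 107. The run 103, 106, 31, 105, 105 occurred in 8 genes of the annotation, all in the interval, and CD163 was the one member without it.

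The introns of the arrangement alternated between short and long. Leaving CD163 aside, the first intron measured 90 to 97 bases over 14 copies, the second 3115 to 8453 and the third 73 to 101. The last intron measured 1055 to 2384 bases in 13 of them and 8723 bases in the third copy of WC1.3, with a median of 1146 over all 14. The first copy in WC1 had introns of 93, 4067, 77 and 1115 bases, and its second copy had 93, 7279, 76 and 1114. WC1.3 had 90, 8064, 101 and 1055 bases in its first copy and 91, 4675, 77 and 1219 in its second, and the third replaced the 1219 by 8723. CD163L1 had 93, 8453, 76 and 1146. In each of these 6 copies of the members the exons thus lay as 2 close pairs, an SRCR-sized pair and a linking exon paired with its SRCR-sized neighbour, with the fifth exon 1055 to 1219 bases away, or 8723 in the third copy of WC1.3.

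In CD163 the first intron was 97 bases and the third 81, close to the other copies, and the other 2 differed. Its second intron was 1254 bases, below the lowest of the other 14 copies, and its last was 4197 bases, above that of every other copy but the third of WC1.3. The whole arrangement covered 6988 bases in CD163, 14916 in that copy of WC1.3 and 6702 to 11118 in the remaining 13.

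Downstream of the last arrangement, a run of 4 exons of 14, 105, 11 and 46 codons stood before the last exons of WC1, WC1.3 and CD163L1. The same run was found in 6 genes of the annotation, all in the interval, the others being WC-7, WC1-12 and ENSBTAG00000052511. Its 3 introns were nearly constant, at 78 to 88, 251 to 256 and 543 to 558 bases. WC1 had 87, 255 and 543 bases, and CD163L1 had 88, 254 and 546. CD163 had no such run.

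When whole coding models were set against each other, the longest stretch of consecutive exons equal in length and frame joined WC1.3 to WC-7, a gene of the opposite strand and block. It held 15 exons. Introns within it were of like size at most places, such as 1219 and 1219, 87 and 87, 77 and 77, and 8064 and 7884 bases in WC1.3 and WC-7. The largest gap between them was at an intron of 11315 bases in WC1.3 and 7332 in WC-7. WC1.3 shared 14 exons with its immediate neighbour ENSBTAG00000052511, but 7 with WC1 and 8 with CD163L1.

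WC1 and CD163L1 shared 9 consecutive exons, the longest run between any pair of members. Their introns in this run were equal at 1 place, with 93 bases before the exon of 106 codons, and differed elsewhere by 1 to 5261 bases. CD163L1 and its neighbour ENSBTAG00000050749 shared 7 exons, with introns of 93, 76 and 1146 bases in both. The other introns of this run differed, at 5024, 7147 and 8453 bases in CD163L1 and 4944, 7198 and 7160 in ENSBTAG00000050749. CD163 shared no run longer than 2 exons with any other gene of the 12. With genes outside the interval, no member shared a run longer than 2.

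Transcripts of WC1, CD163L1 and CD163 differed in how many SRCR-sized exons they held. The 6 transcripts of WC1 held 11, 8, 7, 7, 5 and 5, with coding sequences from 4323 down to 2595 bases. The 5 transcripts of CD163L1 held 10, 9, 7, 6 and 4, with 4326 down to 2625 coding bases. Of the 11 SRCR-sized exons of WC1 and the 10 of CD163L1, 2 in each were in every transcript. The 2 transcripts of CD163 held 9 and 8, and differed at 1 place, where an exon of 113 codons stood in place of exons of 103 and 12 codons.

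WC1.3 behaved otherwise, since each of its 3 transcripts held 10 SRCR-sized exons, 8 of them in every transcript. Over all coding exons WC1.3 did not stand apart from CD163L1. Of its 36 distinct coding exons 11 were in all 3 transcripts, close to the share in CD163L1, with 8 of 27 in 5 transcripts. In WC1 6 of 32 were in all 6 transcripts. Some of the shorter transcripts of WC1 and CD163L1 were joined across long distances. The longest intron was 18947 bases in WC1 (ENSBTAT00000067558) and 28786 bases in CD163L1 (ENSBTAT00000067420). The transcript of WC1 with the shortest coding sequence, ENSBTAT00000057422, had no intron above 7279 bases and no annotated start codon.

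**Figure D4:**
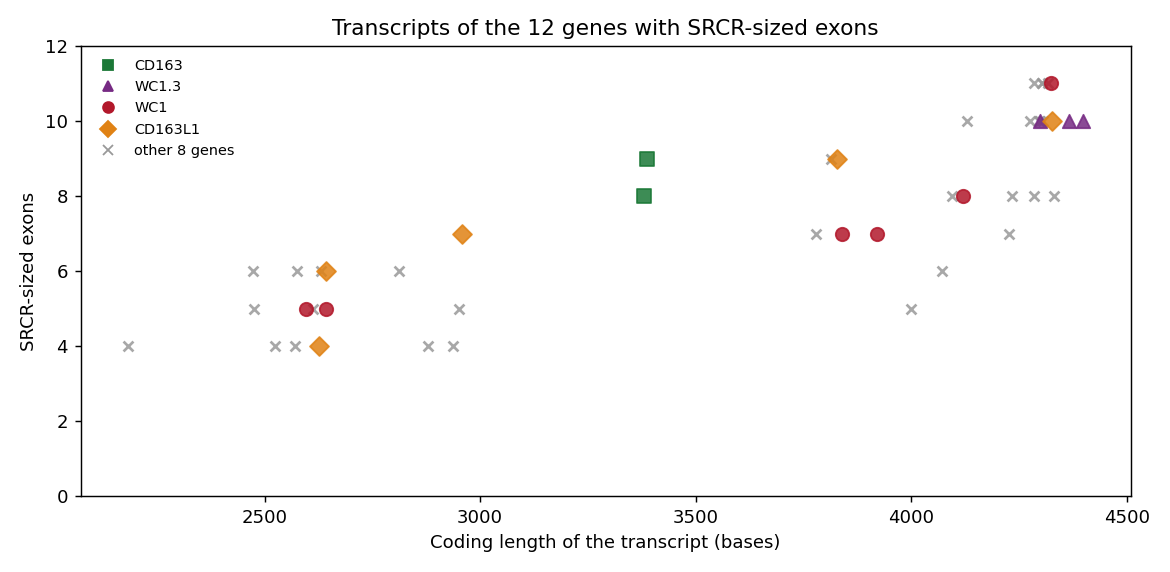
Number of SRCR-sized exons (y axis) against coding length in bases (x axis) for each of the 46 transcripts of the 12 genes, with the members in colour and the other 8 genes as grey crosses; some points overlap. WC1 and CD163L1 spread from 11 or 10 SRCR-sized exons down to 5 or 4, and the 3 transcripts of WC1.3 stay at 10.

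The 3′ part of WC1.3 was annotated at 2 places. Coding exons of 105, 14, 105, 11 and 46 codons stood between 102630261 and 102632344, and exons of the same 5 lengths stood between 102637765 and 102639848, each 7504 bases from its counterpart. The introns after the exon of 14 codons, after the second exon of 105 and after the exon of 11 were 87, 252 and 553 bases in both sets. Transcript ENSBTAT00000080817 read the downstream set and passed over the upstream one. ENSBTAT00000079278 read the upstream set, and ENSBTAT00000070712 read its first 3 exons and then an exon of 63 codons. The search for at least 4 exon pairs at a constant distance was defined after this pattern was seen, and it found 3 genes in the annotation, WC1.3, OGDH and CATHL3. Whether both sets are present in the genome of reindeer was not analysed here.

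**Figure D5:**
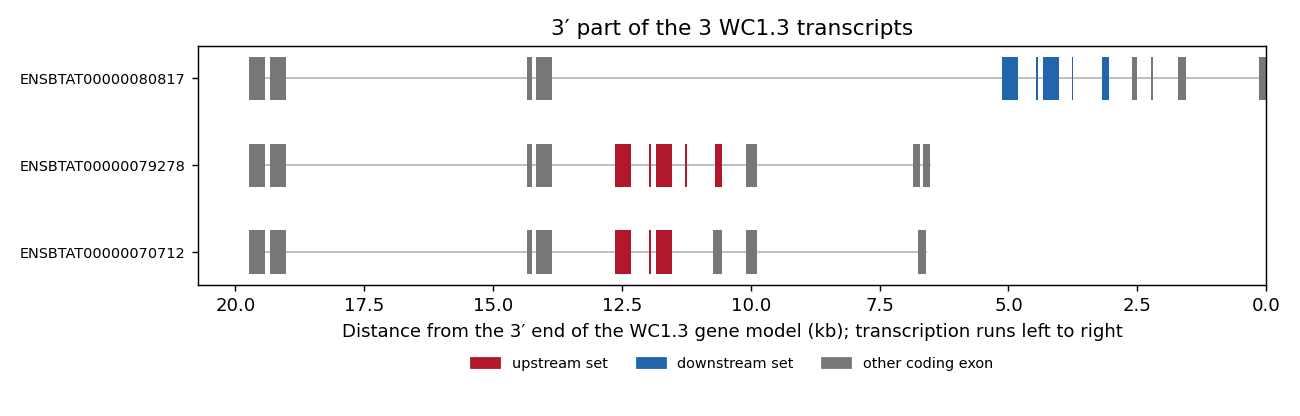
Coding exons in the 3′ part of the 3 WC1.3 transcripts by distance from the 3′ end of the gene model in kb, with transcription running left to right. The upstream set (red, near 12 kb) and the downstream set (blue, near 4 kb) hold exons of the same 5 lengths at a distance of 7504 bases, and no transcript holds both.

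Several models in the cluster contained very short introns. At least 1 intron under 60 bases was annotated in 7 of the 12 genes, against 6.51% of all protein-coding genes. That share took in genes with any number of exons and transcripts, and no share matched for these was computed. Among the members, WC1.3 had 4 such introns and CD163L1 had 1. The shortest intron was 2 bases in WC1.3, 57 bases in CD163L1, 76 bases in WC1 and 81 bases in CD163.

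In WC1.3, 3 of the 4 short introns divided a single stretch of 329 bases, from 102686705 to 102687033, between the first coding exon and the first arrangement. Each transcript divided it differently. ENSBTAT00000080817 had exons of 209 and 118 bases around an intron of 2 bases, ENSBTAT00000070712 had 221 and 73 bases around 35, and ENSBTAT00000079278 had 189 and 102 bases around 38. The stretch was thus 1 base short of 330, the length in bases of the undivided exon that WC-7 carries at this place in its order of exons. That exon, of 110 codons, was the only one of its length among the 101 SRCR-sized exons. At this place 107 codons was more common, in WC1, CD163L1, ENSBTAG00000053486, ENSBTAG00000024318, ENSBTAG00000039256, ENSBTAG00000050749 and 2 transcripts of ENSBTAG00000052511. The stretch was longer than these exons. In ENSBTAG00000048875 and WC1-12 the exon there was not SRCR-sized.

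In CD163L1 the short intron lay after its second pair of exons of 103 and 106 codons and before an exon of 105. Exons of 76 and 350 bases, with 57 bases between them, covered 483 bases there. In the 15 complete arrangements, the linking exon, the intron after it and the next SRCR-sized exon together covered 481 to 509 bases, with a median of 485. These stretches were measured after the models had been seen. Annotation choices and sequence differences could not be told apart here, since no genome sequence was used.

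The 6 unnamed genes with SRCR-sized exons between the members held 5 to 11 of them. ENSBTAG00000052511, next to WC1.3, was the fullest, with 9 transcripts, 11 SRCR-sized exons, 2 arrangements and up to 4305 coding bases at 102565488 to 102615132. ENSBTAG00000053486, the first of the 12 after CD163, had 7 transcripts, 8 SRCR-sized exons and up to 4284 coding bases at 101904432 to 101967182. ENSBTAG00000048875, between WC-7 and WC1-12 at 102086748 to 102147556, had 1 transcript of 20 exons and 3999 coding bases, of which 5 exons and 39.5% of the bases were SRCR-sized.

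The remaining 3 were shorter in coding length. ENSBTAG00000024318, the last gene of the plus-strand block at 102477517 to 102503677, had 6 SRCR-sized exons and up to 2811 coding bases. ENSBTAG00000039256, between WC1 and CD163L1 at 102831822 to 102863546, had 5 and up to 2613, and none of its 2 transcripts had an annotated start codon. ENSBTAG00000050749, next to CD163L1 at 102915951 to 103003566, had 5 and 2952, and contained an intron of 28594 bases. Of the named pair, WC-7 had 7 transcripts, 11 SRCR-sized exons and up to 4317 coding bases at 102009961 to 102067015, and WC1-12 had 1 transcript, 8 and 4332 at 102220411 to 102267444.

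The other 3 genes of the interval held no SRCR-sized exon, and none carried a symbol. ENSBTAG00000053242, on the minus strand 9245 bases after CD163, had up to 4 exons and 372 coding bases. ENSBTAG00000054128 had 1 exon with 1182 coding bases and lay inside an intron of ENSBTAG00000053486 on the opposite strand, sharing 0 exon bases with it. ENSBTAG00000050301 had 1 exon with 627 coding bases, on the plus strand between ENSBTAG00000039256 and ENSBTAG00000050749. No exon base was shared among the 12 genes with SRCR-sized exons.

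Untranslated regions were nearly absent from the family. None of the 4 members had an annotated 5′ UTR, against 19.4% of protein-coding genes with a symbol that lacked one. CD163, WC1.3 and CD163L1 had no 3′ UTR in any transcript, against 20.2% of those genes. WC1 had a 3′ UTR of 5 bases in 1 of its 6 transcripts, ENSBTAT00000067558, and none in the other 5. No stop codon was annotated in ENSBTAT00000067558.

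All of the 8 other genes with SRCR-sized exons lacked both UTRs. Over the 12, 11 genes lacked both, whereas the share was 28.0% over all protein-coding genes and 78.7% over protein-coding genes without a symbol. The 4 members all carry symbols. Of the 3 genes without SRCR-sized exons, ENSBTAG00000053242 had a 5′ UTR of 850 bases and a 3′ UTR of 124, and ENSBTAG00000054128 had 316 and 157.

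The ends of the coding sequences were annotated unevenly. All 5 transcripts of CD163L1 and both of CD163 had a start and a stop codon. In WC1.3 a start codon was annotated in 3 of 3 transcripts and a stop codon in 2, the one without being ENSBTAT00000080817. In WC1 each was annotated in 5 of 6. Over the 46 transcripts of the 12 genes, 33 had a start codon and 44 a stop codon.

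The first and last coding exons also recurred. A first coding exon of 73 bases began 31 of the 46 transcripts and was present in 10 of the 12 genes, including WC1.3, WC1 and CD163L1 but not CD163, while 166 genes of the whole annotation had one of this length. The last coding exon was 143 bases in at least 1 transcript of 7 genes, CD163L1 among them, and 164 bases in WC1 and ENSBTAG00000039256. It was 173 bases in CD163 and in 1 transcript of WC-7, and 140 bases in 1 transcript each of WC1.3 and WC1. Neither of the transcripts with 140 bases had an annotated stop codon, so this length is not that of a complete last coding exon in the annotation.

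Because 3′ libraries are read from the end of the transcript, the room after each gene bears on how its reads can be assigned. The next gene on the same strand began 86385 bases after CD163, 73598 bases after WC1, 19023 bases after CD163L1 and 12081 bases after WC1.3. CD163 also faced ENSBTAG00000053242 on the other strand at 9245 bases. No member shared an exon base with another gene on either strand. How many reindeer reads fell in or beyond these models was not tested.

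Other SRCR genes were looked up by symbol for comparison. The list was not limited to group B, the class for which the text above gives an exon per domain, and also took in genes with related SRCR domains. Of 22 besides the members, 20 were matched, and DMBT1 and SCART1 were not matched by symbol. SRCR-sized exons were found in 5 of the 20, which were SSC5D with 5, CD5L with 4, SSC4D with 3, and the lymphocyte receptors CD5 and CD6 with 2 each. CD5L, a secreted protein of macrophages, lay on chromosome 3, SSC4D on chromosome 25, SSC5D on chromosome 18, and CD5 and CD6 on chromosome 29. A 3′ UTR was annotated in 16 of the 20 and a 5′ UTR in 18. Of the 4 members 1, WC1, had a 3′ UTR, of 5 bases, and 0 had a 5′ UTR.

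The size rule was not specific to SRCR domains. Outside the interval at least 5 such exons were found in TNXB with 8 and SIGLEC1 with 6, which encode proteins built of fibronectin type III and immunoglobulin domains respectively, and in ENSBTAG00000010522 with 6 and SSC5D with 5. None of these 4 genes held the arrangement of 5 exons seen in the members.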

How the data were processed

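The file used was the deposited gene annotation of cattle, which per the file headers describes the assembly ARS-UCD1.2. It held 1020224 feature lines and 21861 protein-coding genes, 16808 of them with a symbol. It gives the first and last base of every feature, counting from 1, and the frame of each coding exon. Per the submitters' processing notes the study used STAR, Cell Ranger 3 and Seurat, and how reindeer reads were matched to cattle genes is not stated in the labels used here. Cell-by-gene counts were not analysed here, so antler and back samples were not compared and depth is not given.

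Exons, coding exons and untranslated regions were read per transcript with Python 3.11.15, and drawn with matplotlib 3.10.9. Exons were distinct by coordinates. Coding length excludes the stop codon and is the longest over transcripts, as are UTR lengths. The reader was tested on simulated data, where 500 of 500 gene models were read exactly. Genes named are the members, every gene of their interval, the flanking genes, listed SRCR genes with an SRCR-sized exon or not matched, and the 20 genes with most such exons, with ties. OGDH and CATHL3 were named after their values were seen.

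The members and lists were chosen with earlier results of these data known. Every value is a description with no test. No genome or protein sequence was used, so none is printed and sequence identity between members is not given.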

Additional observations from a re-analysis of the deposited data

How the results depend on the processing

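Of 79 alternative values, 69 were within 1.5 times the reported one for counts, or equal to it for lengths and shares. Among these the exons of WC1.3 went from 22 to 28 when united over transcripts. The count of members without a 3′ UTR was 3, and 4 when the longest-coding transcript was read or when at least 50 or 200 bases were required. The background share without a 3′ UTR moved from 20.2% to 34.5% over all protein-coding genes, 29.3% for the longest-coding transcript, 22.3% with at least 50 bases and 33.8% with at least 200. Coding length as the union over transcripts was 3417 bases for CD163, 5806 for WC1.3, 4705 for WC1 and 4455 for CD163L1, since alternative exons then add up. The interval held 15 genes, 44 with 500 kb added on either side, and 8 on the minus strand alone, where 3 of the 4 members lie. In its longest-coding transcript WC1.3 had 10 SRCR-sized exons in place of 12, below the 11 of WC1 and WC-7. With a linking exon of 60 to 130 bases, added after seeing the data, the arrangement of 5 exons was still found 15 times in the interval and 0 times elsewhere. The models are those of cattle, no genome sequence was used, and the size of an exon does not show that it encodes an SRCR domain. No paired analysis was possible because no values per sample were analysed.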

Other observations

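Genes without a symbol that held at least 3 SRCR-sized exons were found outside the interval as well. On chromosome 26, ENSBTAG00000010522, with 6, lay at 25511783 to 25521653, and ENSBTAG00000050119, with 3, lay at 25275283 to 25491521, both on the minus strand. ENSBTAG00000052092, with 4, lay elsewhere on chromosome 26, at 42407980 to 42423035. On chromosome 3, ENSBTAG00000053777, with 3, began at 12531188 on the plus strand, after CD5L, which has 4 and ends at 12526879. ENSBTAG00000048555 and ENSBTAG00000054949, with 3 each and 8 transcripts each, lay on the same unplaced scaffold in opposite orientations. ENSBTAG00000019432, with 3, lay on chromosome 19. None of these 7 genes held the arrangement of 5 exons found in the WC1 and CD163 cluster, and what they encode is not named in the annotation.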
